A study of Homo sapiens with 2 samples.

Results

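The genes described here carry the symbol stems of the cell's membrane traffic machinery: SEC, RAB, VPS, SNX or STX followed by a number, and COP followed by a coat subunit letter. They were chosen by symbol alone, leaving out the COPS genes of the COP9 signalosome, although earlier results of these data were known at the time. In all 108 of the 14884 named genes met this rule, and 104 of the 108 code for proteins. By stem there were 34 VPS, 28 SNX, 20 SEC, 14 STX, 11 RAB and 1 COP genes. The measurements come from UACC62, an established human melanoma cell line, an siRNA against FOSL1 (1 culture) or a non-targeting siRNA (1 culture) having been transfected 3 days before harvest. FOSL1 encodes the FOS family subunit FRA1 of the transcription factor AP-1. Total RNA of each culture was the input for a whole-transcript Affymetrix array. The number of siRNA sequences used is not given. Both cultures were of the same line and neither condition had a second culture, so every value below describes 1 pair of arrays, with no test and no error between replicates. In bulk RNA, fewer cells of a type and less RNA per cell cannot be told apart.

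Proteins that leave the cell or reside in its membranes enter the endoplasmic reticulum through the Sec61 channel, lose their signal peptide to signal peptidase, and are carried to the Golgi in vesicles with a COPII coat. COPI vesicles carry material back. Rab GTPases mark the identity of each membrane, tethers and syntaxins dock and fuse the vesicles, and sorting nexins, retromer and ESCRT complexes decide whether an endosomal cargo is recycled or sent to the lysosome. Melanocytes and melanoma cells use the same endosomal routes to build the melanosome, a relative of the lysosome.

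FOSL1 itself, the gene the siRNA was directed against, had log2 values of 11.90 on the control array and 10.38 on the knockdown array. It was 2.88-fold lower and had the lowest difference of all named genes above the signal filter, the direction its label gives. This filter kept the 7442 genes whose mean log2 value over both arrays was at least 8.02, the median of named genes. Of the melanocyte lineage markers, 9 of 10 were named on the array and 7 lay above the filter. Of these 7 the differences were 0.36 for MITF and 0.12 for MLANA, and -0.40 for S100A1, -0.34 for TYR, -0.30 for SOX10, -0.12 for MC1R and -0.08 for S100B (0.01 once a trend on gene span was taken out). PMEL (6.62 on the control array) and TYRP1 lay below it. Of the keratinocyte and other epithelial markers 1 of 10 named was above the filter, KRT18, and of the fibroblast, endothelial and leukocyte markers 2 of 7, LUM (11.05 and 11.53) and CD68 (10.79 and 10.17). The part of other cell types in the results below was not tested.

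Of the 108 trafficking genes, 87 lay above the filter and 21 below it. Differences are given throughout on the log2 scale as FOSL1 siRNA minus control, so that positive values are higher after knockdown. All of the 87 genes lay within 1.5-fold: 0 passed that size upward, where 1.13% of the 7442 genes did, and 0 downward, where 0.766% did. A smaller threshold was therefore used as well, a log2 difference of 0.32 in either direction, which is a level 25% higher or 20% lower. By this measure 10 trafficking genes were higher, 11.5% of the 87 against 7.38% of all genes, and 1 was lower, 1.15% against 5.91%. Of the 10 higher genes, 2 (VPS29 and SNX16) passed the filter through the knockdown array alone, and their control values lay below it. The same held for 73 of the 549 genes that were at least 25% higher among all genes. Above 0 lay 56 genes, or 64.4% against 49.8% of all genes, and 30 lay below it. The median difference was 0.06, against -0.0008 for all genes. When the filter was raised to the 75th percentile of signal, 48 trafficking genes were left. Of these 1, VPS13C, was at least 25% higher (2.08%, against 4.49% of all genes) and 30 lay above 0 (62.5%, against 50.9%). The count at least 20% lower was 3 after quantile normalization over the named genes (3.45%, against 6.05% of all genes), with SNX30 and RAB11FIP5 beside STX1A. The SD between probe sets of the same gene was 0.17, pooled over the 2 brightest of each of 213 genes with at least 2 above the filter. The median gap between the 2 was 0.08. Both values leave out variation between cultures.

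**Figure D1:**
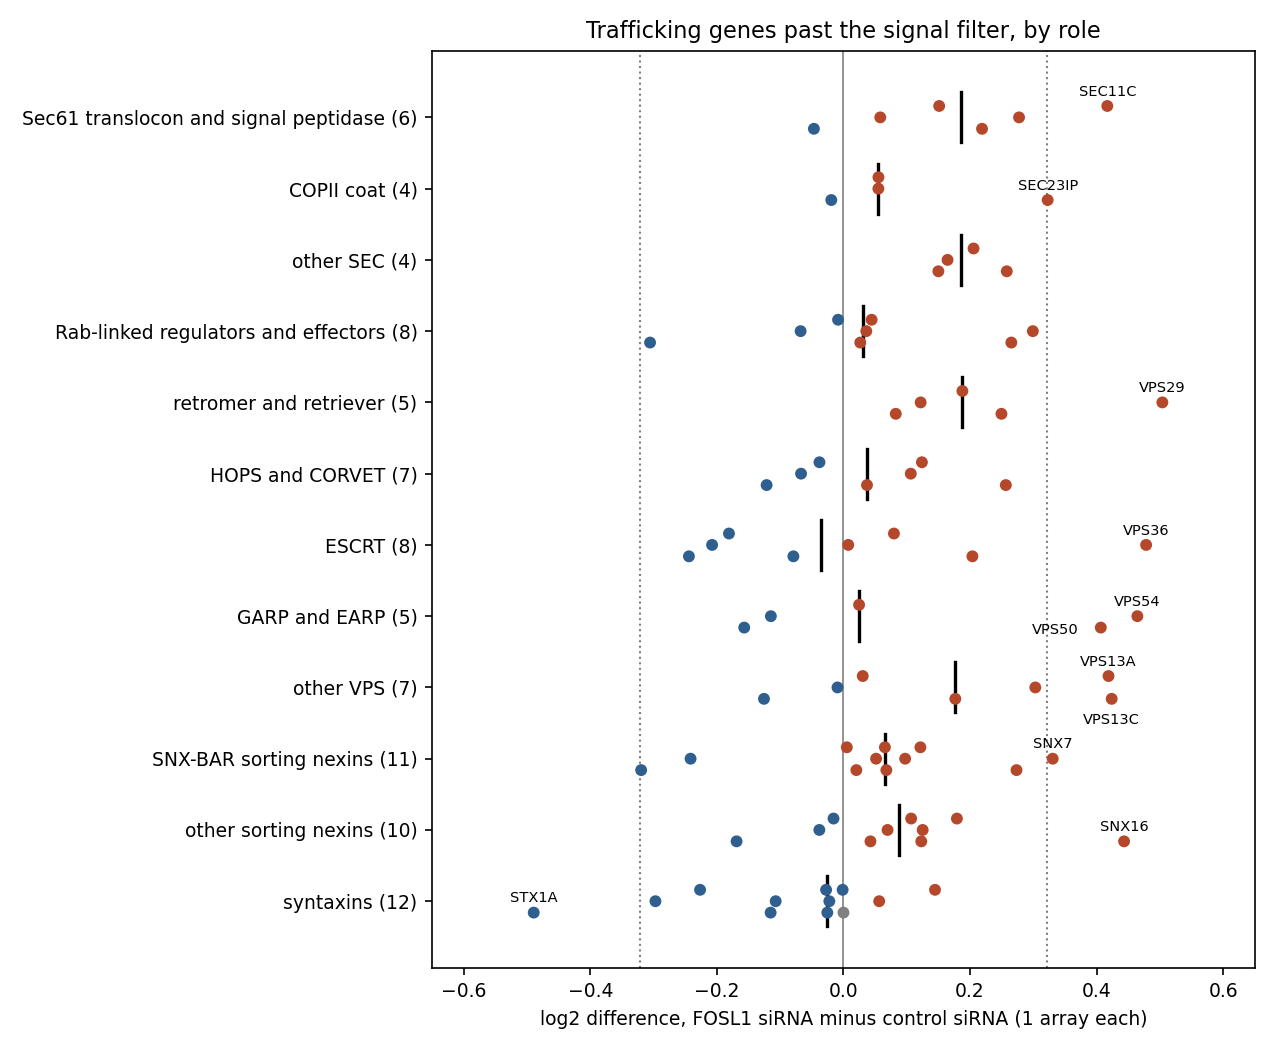
Log2 difference (FOSL1 siRNA minus control siRNA, 1 array each) of the 87 trafficking genes above the filter, 1 point per gene, in rows by role with the number of genes in brackets; black bars are row medians, dotted lines mark the threshold of 25% higher or 20% lower, and the vertical offset of points within a row has no meaning. The genes named on the plot are the 10 at least 25% higher and STX1A, the 1 at least 20% lower; 2 of the syntaxins lie above 0.

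AP-1 binds a short palindrome in DNA, so the promoters of the members are shown before their values. RefSeq promoter sequences (GRCh38.p14, 250 bases before to 50 after the annotated start) were found for 70 of the 87 genes. A loose form of the AP-1 site, TGANTCA with any base in the middle, was searched on both strands. It stood in 4 of the 70 promoters (5.71%), against 4.27% of the 5996 promoters of genes above the filter and 7.76% of 27305 promoters. The 4 are printed here from 250 bases before to 10 after the start, 5′ to 3′ along the gene, with the site in capitals.
SEC22B (chr1:120176511-120176770, - strand): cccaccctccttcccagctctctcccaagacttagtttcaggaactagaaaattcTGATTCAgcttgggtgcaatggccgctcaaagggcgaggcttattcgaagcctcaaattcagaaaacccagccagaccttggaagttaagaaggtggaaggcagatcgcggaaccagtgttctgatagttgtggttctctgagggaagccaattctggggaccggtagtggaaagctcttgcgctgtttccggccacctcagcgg
SEC61B (chr9:99222032-99222291, + strand): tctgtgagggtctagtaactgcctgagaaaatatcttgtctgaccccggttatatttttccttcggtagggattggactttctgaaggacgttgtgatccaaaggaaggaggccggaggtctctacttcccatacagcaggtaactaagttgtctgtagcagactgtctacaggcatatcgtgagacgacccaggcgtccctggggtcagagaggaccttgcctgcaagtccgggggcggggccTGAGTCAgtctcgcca
VPS8 (chr3:184811916-184812175, + strand): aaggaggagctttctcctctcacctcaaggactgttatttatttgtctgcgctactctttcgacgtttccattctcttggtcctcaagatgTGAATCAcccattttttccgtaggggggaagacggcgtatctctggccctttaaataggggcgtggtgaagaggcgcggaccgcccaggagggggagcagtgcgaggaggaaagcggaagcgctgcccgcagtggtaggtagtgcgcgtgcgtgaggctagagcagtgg
SNX27 (chr1:151611800-151612059, + strand): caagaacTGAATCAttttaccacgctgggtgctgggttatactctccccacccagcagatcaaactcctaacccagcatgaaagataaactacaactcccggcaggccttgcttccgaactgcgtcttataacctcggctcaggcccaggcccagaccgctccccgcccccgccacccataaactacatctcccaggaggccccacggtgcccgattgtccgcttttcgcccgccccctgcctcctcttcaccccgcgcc

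The differences of these 4 genes were 0.26 for SEC22B, -0.05 for SEC61B, 0.26 for VPS8 and 0.04 for SNX27, all inside the smaller threshold. In SEC61B the site was TGAGTCA and reached across the start itself. The middle base differed in the others, with TGATTCA in SEC22B and TGAATCA in VPS8 and SNX27. Of the 11 trafficking genes past the smaller threshold in either direction, 10 had a promoter sequence and 0 of the 10 held this motif. A match describes letters in a window and is not evidence of binding.

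Motifs of secretory and lysosomal control were searched in the same windows on both strands. The core TGACGTGG, a form recognised by XBP1 and related factors of the unfolded protein response, stood in 5 of the 70 promoters (7.14%), against 0.984% for genes above the filter and 0.795% of all promoters. The 5 belong to SEC16A, SEC23A, SEC62, SNX21 and STX5, with differences of -0.02, 0.06, 0.22, -0.02 and -0.03. A pair of them is printed with the core, or its reverse complement CCACGTCA, in capitals, because these genes stand for import into and export from the endoplasmic reticulum.
SEC62 (chr3:169966557-169966816, + strand): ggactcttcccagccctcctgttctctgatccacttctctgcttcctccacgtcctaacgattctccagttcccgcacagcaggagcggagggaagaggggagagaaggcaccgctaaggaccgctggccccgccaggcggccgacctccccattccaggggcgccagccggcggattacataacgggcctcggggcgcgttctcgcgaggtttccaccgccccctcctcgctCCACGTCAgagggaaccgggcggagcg
SEC23A (chr14:39103226-39103485, - strand): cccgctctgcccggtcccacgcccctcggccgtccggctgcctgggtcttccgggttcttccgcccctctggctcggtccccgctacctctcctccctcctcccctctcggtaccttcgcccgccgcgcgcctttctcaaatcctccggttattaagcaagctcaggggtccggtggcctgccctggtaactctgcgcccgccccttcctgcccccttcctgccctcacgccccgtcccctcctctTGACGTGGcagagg

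The cAMP response element TGACGTCA stood in 5 of the 70 (7.14%, against 3.52% and 1.98%) and the E-box CACGTG in 11 (15.7%, against 10.6% and 7.43%). The longer E-box TCACGTGA of lysosomal genes, which contains CACGTG, stood in 3 (4.29%, against 2.1% and 1.04%). The ER stress element, CCAAT and CCACG with 9 bases between them, was found in 0 of the 70 and in 0.0806% of all promoters. Of the 10 promoters of genes past the smaller threshold, 3 held the E-box: those of SEC11C, SEC23IP and VPS50.

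At the entry to the secretory pathway, 5 of 6 genes of the Sec61 translocon and signal peptidase lay above 0, with a median of 0.19. SEC11C, one of the alternative catalytic subunits of signal peptidase, had log2 values of 8.75 on the control array and 9.17 on the knockdown array. This 1.34-fold difference ranked 277 from the highest of 7442 genes. SEC11A, its paralog, had 8.51 and 8.66, a difference of 0.15. SEC63, which recruits the chaperone BiP to the channel, had 10.88 and 11.16, and SEC62, its partner in importing small proteins, had 10.15 and 10.37. The dimmer probe set of SEC62 gave 0.31, in the same direction as the 0.22 of the brighter. SEC61A1, the pore itself, had 13.39 and 13.45 and SEC61B, its small tail-anchored subunit, 11.82 and 11.77. The channel core thus lay within 0.06 of 0 while the accessory genes lay further above it. SEC61B was at 0.04, on the other side of 0, once a loess trend on the genomic span of genes had been taken out.

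Of the inner COPII coat, the SEC23 genes lay near 0. No SEC24 gene, SEC13 or SEC31A was among the named genes, so those parts of the coat are not described. SEC23A and SEC23B, paralogs that activate the coat GTPase and bind cargo adaptors, had log2 values of 11.38 and 11.61 on the control array and of 11.43 and 11.67 on the other, a difference of 0.06 for each. SEC16A, the scaffold of the sites where COPII vesicles form, had 9.48 and 9.46. SEC23IP, a SEC23-binding phospholipase-like protein of the same sites, had 9.06 and 9.39. Its difference of 0.3227 was just past the smaller threshold of 0.3219. SEC16B and the outer coat paralog SEC31B lay below the filter, with differences of 0.27 and 0.24. Of the COPI coat, no subunit with a COP symbol was among the named genes. The single COP symbol, COPG2IT1, is a non-coding RNA transcribed within the COPG2 locus, and its values of 4.32 and 4.53 lay far below the filter. ARCN1, the delta subunit of that coat and a gene of the COPI partner list below, had 12.48 and 12.59, a difference of 0.11.

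The other 4 SEC genes above the filter all lay above 0. SEC22B, a SNARE of transport between the endoplasmic reticulum and the Golgi, had log2 values of 11.12 and 11.38, a difference of 0.26. It has near-identical copies in the genome, so its value is uncertain. SEC22C, a related protein of the endoplasmic reticulum that lacks a SNARE domain, had 0.15. SEC14L4, a lipid-binding protein, had 0.21, and the pseudogene SEC14L1P1, which may share signal with its parent gene, 0.16. Together 12 of the 14 SEC genes lay above 0, with a median of 0.16, and 13 did with the span trend removed.

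**Figure D2:**
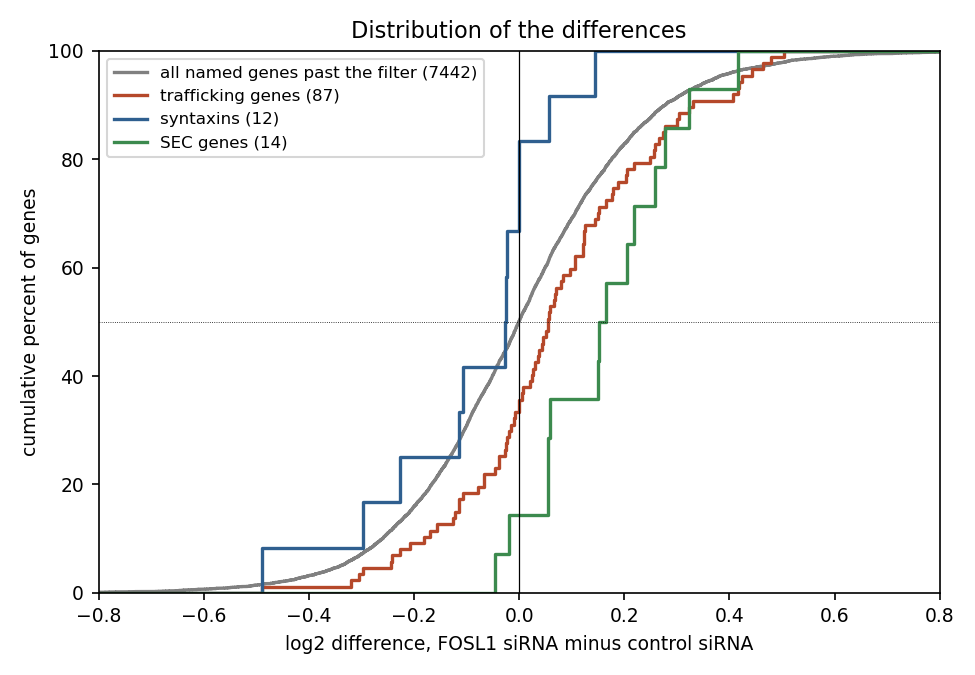
Cumulative percent of genes (vertical axis) at or below each log2 difference (horizontal axis, FOSL1 siRNA minus control siRNA) for all 7442 named genes above the filter, the 87 trafficking genes, the 12 syntaxins and the 14 SEC genes; 25 of the named genes and 0 trafficking genes lie beyond the axis limit of 0.8 in either direction. The curve of the SEC genes lies to the right of that of all genes near the 50% line, with a median of 0.16, and that of the syntaxins to the left, with a median of -0.03.

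Few of the RAB stem genes named here are Rab GTPases. Of 13 well-known Rabs looked for, such as RAB5A of early endosomes, RAB7A of late endosomes and RAB27A of melanosomes, 0 had a named probe set, so the GTPases were not analysed here. The single GTPase, RAB6D, is a near-identical copy of other RAB6 genes and lay at 3.20 and 3.01, far below the filter. The RAB stem genes above the filter were 8 regulators and effectors, with a median of 0.03 and 5 above 0. RAB3GAP2 (10.67 and 10.97), the non-catalytic subunit of a complex that regulates RAB3 and RAB18, had the highest difference at 0.30, whereas its catalytic partner RAB3GAP1 (10.20 and 10.19) was at -0.01. The RAB11 effectors of the recycling endosome lay on both sides. RAB11FIP2 (10.55 and 10.82) was at 0.27 and RAB11FIP5 (8.89 and 8.59) at -0.31, while RAB11FIP1 and RAB11FIP3 were at 0.03 and -0.07. RAB3IL1, an exchange factor, and RAB5IF, a small membrane protein, were both at 0.04.

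All 5 retromer and retriever genes above the filter lay above 0, with a median of 0.19. Retromer returns cargo from endosomes to the Golgi and the cell surface, and retriever is a sister complex that recycles integrins. VPS29, the subunit shared by both complexes, had log2 values of 7.81 on the control array and 8.32 on the knockdown array. This 1.42-fold difference was the highest of the 87 genes and ranked 158 from the highest of all 7442. Its control value lay below the filter, so the low signal limits its precision. VPS35, the backbone of retromer, had 11.16 and 11.24, a difference of 0.08. The arrestin-like subunits VPS26A (9.98 and 10.17) and VPS26B (9.15 and 9.40) were at 0.19 and 0.25. Of the retriever subunits, VPS35L (10.24 and 10.36) was at 0.12. VPS26C lay below the filter with 7.80 and 7.52, a difference of -0.28 in the opposite direction. Its control value was close to that of VPS29. The filter on the mean thus kept the gene that was higher after knockdown and left out the one that was lower. That all 5 lay above 0 therefore depends in part on the filter. All 5 genes above the filter stayed above 0 with each array centred, after quantile normalization, and with a trend on signal or on span removed.

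The sorting nexins bind endosomal phosphoinositides through a PX domain. Of the 21 above the filter 16 lay above 0, and the median was 0.07. SNX1, SNX2, SNX5 and SNX6, which bend membranes and act with retromer, had differences near 0, of 0.02, 0.01, 0.07 and 0.07. SNX7 (8.23 and 8.56) and SNX4 (10.62 and 10.89), which form a complex in autophagy and recycling, were at 0.33 and 0.27. SNX30 (10.72 and 10.40), the alternative partner in that complex, was at -0.32, just short of the smaller threshold, and SNX8 (9.94 and 9.70) at -0.24. Members of this small family with a shared partner therefore lay on opposite sides of 0. SNX16, a protein of late and recycling endosomes, had 7.83 and 8.28, a 1.36-fold difference, with a control value below the filter. SNX17 (11.63 and 11.46), which recycles integrins together with retriever, was at -0.17, SNX27 (11.25 and 11.30), the retromer adaptor for PDZ-binding cargo, at 0.04, and SNX3 (11.49 and 11.60), which recruits retromer, at 0.11. The remaining 9 lay between -0.04 and 0.18.

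**Figure D3:**
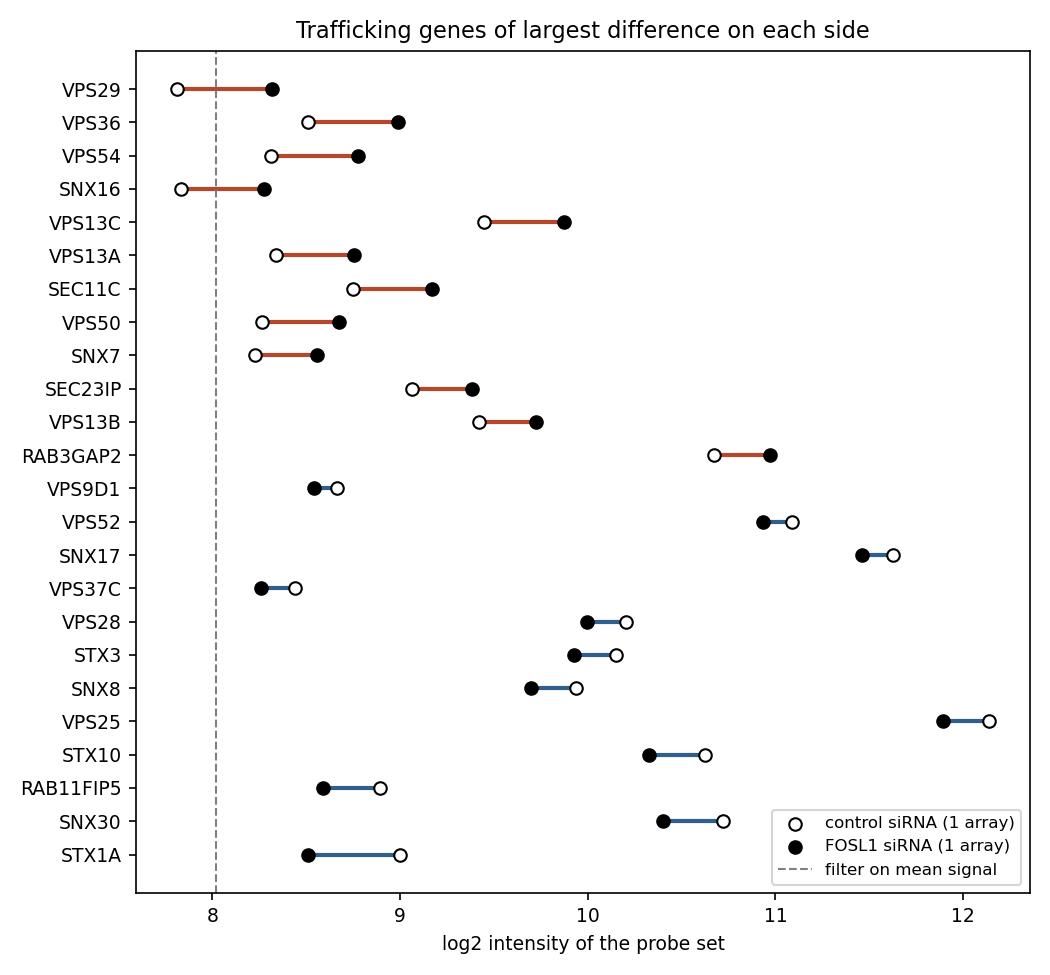
Log2 intensity (horizontal axis) on the control siRNA array (open points) and the FOSL1 siRNA array (filled points) for the 12 trafficking genes of highest and the 12 of lowest difference above the filter, 1 array each; the dashed line is the filter at 8.02, and positions of different genes along the axis are not comparable. VPS29 and SNX16 start below the filter with control siRNA, and the lines of the lower genes, apart from STX1A, are shorter than those of the 10 highest genes.

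Members of the ESCRT complexes, which sort ubiquitinated cargo into vesicles inside the late endosome, lay evenly on both sides, with 4 of 8 above 0. Their median was -0.04. Partners within the same complex differed in direction. VPS36, the ubiquitin- and lipid-binding subunit of ESCRT-II, had log2 values of 8.51 and 8.99, a 1.39-fold difference that ranked 192 from the highest. VPS25, also of ESCRT-II, had 12.14 and 11.89, a difference of -0.24. In ESCRT-I, VPS28 (10.21 and 10.00) was at -0.21. The alternative VPS37 subunits of that complex were at 0.20 for VPS37A, -0.08 for VPS37B and -0.18 for VPS37C, and both probe sets of VPS37B were below 0. VPS37D, the remaining paralog, had 7.50 and 8.19. It was 1.62-fold higher, the single trafficking gene past 1.5-fold when no filter was applied, where 1.91% of all 14884 genes were that much higher. Its mean lay below the filter, and with no replicate the value cannot be separated from noise at low signal. VPS4A and VPS4B, the ATPases that disassemble ESCRT filaments, were at 0.01 and 0.08.

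In the tethering complexes GARP and EARP, 3 subunits are shared and 1 is particular to each. The shared subunits VPS51 (8.52 and 8.41), VPS52 (11.09 and 10.93) and VPS53 (11.45 and 11.48) had differences of -0.11, -0.16 and 0.02. VPS54, the subunit that directs GARP to the Golgi, had 8.31 and 8.78, a 1.38-fold difference. VPS50, which takes its place in EARP on recycling endosomes, had 8.27 and 8.67, a 1.33-fold difference. The differences of both specific subunits thus exceeded those of the shared ones in this pair of arrays. VPS51 is uncertain in direction, since its dimmer probe set gave 0.13, and VPS53 was at -0.02 with the span trend removed. Both probe sets of VPS52 were below 0.

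HOPS and CORVET tether late and early endosomes, respectively, and share a core. The core subunits VPS11 (8.51 and 8.48), VPS18 (9.71 and 9.59) and VPS33A (9.26 and 9.30) had differences of -0.04, -0.12 and 0.04. VPS11 was at 0.01 with the span trend removed. The HOPS subunits VPS39 (10.52 and 10.64) and VPS41 (9.37 and 9.48) were at 0.12 and 0.11. VPS8, specific to CORVET, had 7.91 and 8.16, a difference of 0.26 that started below the filter. VPS33B (9.02 and 8.96), which belongs to a related complex, was at -0.07. None of these 7 genes passed the smaller threshold.

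The VPS13 genes encode very large bridge-like proteins that carry lipids between membranes. They were singled out after their values were seen. All 4 lay above 0. VPS13C (9.45 and 9.87) and VPS13A (8.34 and 8.76) were both 1.34-fold higher, VPS13B (9.42 and 9.72) was 1.23-fold higher, and VPS13D (9.14 and 9.32) 1.13-fold. With the span trend removed their differences were 0.37 for VPS13C, 0.37 for VPS13A, 0.28 for VPS13B and 0.13 for VPS13D. Of the other VPS genes, VPS45, which regulates syntaxins of the endosome, was at -0.01 and VPS9D1 (8.67 and 8.54) at -0.13. VPS72, at 0.03, is a subunit of chromatin complexes and not a transport protein.

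By stem, STX alone had a median below 0, whereas the SEC, VPS, SNX and RAB stems had medians above it. By role this was not particular to the syntaxins, since the 8 ESCRT genes of the VPS stem had a median of -0.04. Of the 12 syntaxins above the filter 9 lay below 0, 2 above and 1, STX8, at 0.00, with a median of -0.03. STX1A, a plasma membrane syntaxin of regulated exocytosis, had log2 values of 9.0 on the control array and 8.51 on the knockdown array. This 1.40-fold lower level ranked 115 from the lowest of 7442 genes and was the lowest of the trafficking genes. STX10 (10.62 and 10.33), of the trans-Golgi network, was at -0.30, and STX3 (10.15 and 9.93), of apical and granule exocytosis, at -0.23. The other plasma membrane syntaxins STX2 and STX4 were at -0.11 and -0.12. The early secretory and endosomal syntaxins STX5, STX6, STX12 and STX18 lay between -0.03 and -0.00, and STX7 and STX17 at 0.06 and 0.14. STX11 and STX19, below the filter, had differences of -0.09 and -0.17. The median was below 0 under each scaling or trend alternative, between -0.04 and -0.02, although 4 rather than 2 lay above 0 when each array was centred on its median.

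Difference and gene length moved together on these arrays, which bears on families of long genes. Across the 87 trafficking genes, which share the same pair of arrays, the Spearman correlation between the difference and the genomic span in RefSeq (GRCh38.p14) was 0.36, and across all 7442 genes it was 0.34. Genes are not independent replicates, so both values are descriptions. The median span was 49.0 kb for trafficking genes and 27.4 kb for all genes. The 21 trafficking genes under 20 kb had a median difference of -0.04, against -0.08 for all genes of that size. Between 20 and 100 kb the medians were 0.06 for 46 trafficking genes and 0.04 for all genes, and at or above 100 kb they were 0.12 for 20 and 0.09. In each class the trafficking genes thus had the higher median by at most 0.05. With the span trend removed, 8 genes were at least 25% higher (9.2%, against 7.75% of all genes), SEC23IP and SNX7 no longer among them. Above 0 lay 57, or 65.5% against 53.0% of all genes. VPS29, STX1A and SEC11C have short spans among the genes past the smaller threshold, and with the trend removed they were at 0.57, -0.47 and 0.45.

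**Figure D4:**
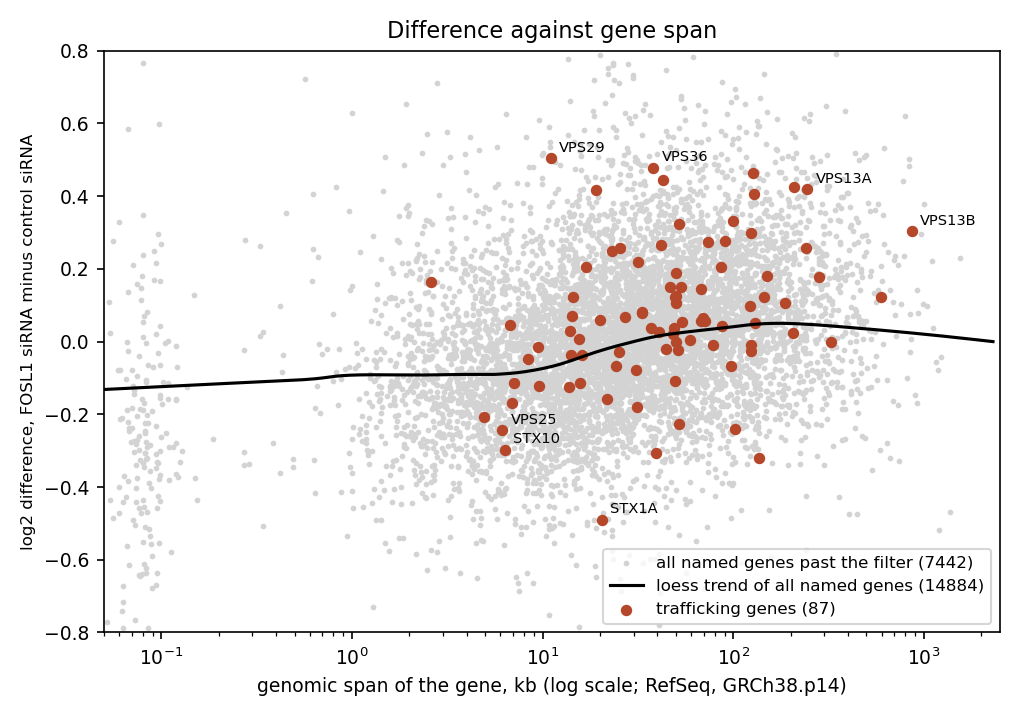
Log2 difference (vertical axis, FOSL1 siRNA minus control siRNA, 1 array each) against the genomic span of the gene in kb on a log axis, for the 87 trafficking genes (coloured) and all 7442 named genes above the filter (grey); the line is the loess trend over all 14884 named genes, and 25 grey genes lie beyond the axis limit. Short genes such as STX10 and VPS25 lie below 0 and the long VPS13A and VPS13B above it, on the same side as the trend. They lie beyond the trend: with it removed they were at -0.21, -0.16, 0.37 and 0.28. VPS29 lies far above the trend at its span and STX1A far below.

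Partners of these genes that lack the symbol stems were taken from 11 lists written from general knowledge, 314 genes in all, of which 196 were named and 172 lay above the filter. Of the 172, 9 were at least 25% higher and 7 at least 20% lower (5.23% and 4.07%, against the 7.38% and 5.91% of all genes), 98 lay above 0, and the median was 0.02. None reached 1.5-fold. These shares rest on few genes of 1 pair of arrays and lay near those of all genes, so no difference is read from them.

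Among SNAREs and their regulators outside the syntaxins, 15 of 22 lay above 0, with a median of 0.08. VAMP4, a SNARE of the trans-Golgi network and endosomes, had log2 values of 8.84 and 9.39, a 1.46-fold difference that ranked 110 from the highest. STXBP4, named as a syntaxin-binding protein, was 1.37-fold higher (8.78 and 9.23). VAMP5 (9.34 and 9.01) and STXBP2 (8.25 and 7.93), a chaperone of exocytic syntaxins, had differences of -0.33 and -0.33, and STXBP2 lay below the filter on the knockdown array. Whether these genes differ from the syntaxins as a group was not tested.

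Of the coat and import partners, the translocon and signal recognition list had 8 of 11 above 0 and a median of 0.06, with SRP19 (8.44 and 8.83), a subunit of the signal recognition particle, 1.31-fold higher. COPII partners had a median of 0.05 (7 of 11 above 0), COPI partners 0.01 (10 of 19) and clathrin and adaptor genes 0.02 (4 of 7), with no gene of these 3 lists past the smaller threshold. Tethering complexes had a median of 0.07 with 19 of 30 above 0. TRAPPC8 (8.91 and 9.34), of the TRAPP complex, was 1.35-fold higher and EXOC5 (9.62 and 9.94), of the exocyst, had a difference of 0.32, while TRAPPC5 (12.07 and 11.70), also of TRAPP, was 1.29-fold lower.

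Endosomal partners followed no common direction. The ESCRT partner list had 6 of 15 above 0 and a median of -0.07, with no gene past the smaller threshold. The retromer, WASH and CCC list had 7 of 14 above 0 and a median of 0.0002. COMMD10, of the CCC complex, was 1.29-fold (8.20 and 8.57) and WASHC3, of the actin-nucleating WASH complex, 1.28-fold higher (8.70 and 9.05). Rab regulators without the stem had 10 of 16 above 0 and a median of 0.06, and RIN1, a RAB5 exchange factor, was 1.39-fold lower (9.51 and 9.04). The lysosome list had 5 of 14 above 0 and a median of -0.02, with the protease CTSK 1.34-fold higher (10.75 and 11.17).

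The melanosome transport list had 7 of 13 above 0 and a median of 0.0016. It held 3 genes at least 20% lower (23.1% of 13, against 5.91% of all genes) and 1 at least 25% higher (7.69%, against 7.38%). MLPH, the melanophilin that ties melanosomes to myosin, was 1.33-fold lower (8.33 and 7.92, the latter below the filter) and SYTL5, a synaptotagmin-like Rab effector, 1.34-fold lower (8.82 and 8.40). The third, HPS6 of the BLOC-2 complex, was 1.26-fold lower and is named after its values were seen. BLOC1S4, of the BLOC-1 complex that serves melanosome formation, was 1.42-fold higher (8.36 and 8.87), on the opposite side.

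Below the filter, the 21 trafficking genes had differences between -0.37 and 0.69, with 12 above 0 and a median of 0.05. SEC14L5 had the lowest of these, -0.37 (8.06 and 7.69), and VPS37D the highest. These dim values carry more noise, and no order is read from them.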

How the data were processed

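Expression was measured in 2 samples, 1 array per siRNA condition, from 100 ng of total RNA each, per the labels' protocols. The deposited values, for 53427 probe sets, were taken as log2 intensities from their range of 2.23 to 14.81. How the authors corrected, summarised and normalized them, and the log base, is not given in the sources used here. When sorted, the arrays differed by at most 0.0301 at the same rank, so a shift in total RNA cannot be seen. Gene symbols came from the platform table (16098 probe sets with 1 symbol, and 37329 not given a single symbol). The probe set of highest mean stood for a gene. All 108 Entrez IDs matched RefSeq (GRCh38.p14), and 0 symbols differed.

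No test was possible. Genes were described by the log2 difference, with 1.5-fold and 25% higher or 20% lower as sizes, and scripts (Python 3.11.15, statsmodels 0.14.6, loess fraction 0.3) were tested on simulated data. The rule took the 12 members of largest difference in each direction, the largest in each role, all members of the coat, retromer, HOPS, CORVET, GARP and EARP groups, and up to 2 partners per direction past the smaller size. The other members are given as examples of their role. The members, roles and lists were chosen with earlier results of these data known. Alternatives were centring, quantile normalization, removal of a trend on signal or on span, other filters, the mean of probe sets, and membership without Rab regulators, SEC14L genes and pseudogenes. The pooled SD of 0.17 and the median gap of 0.08 between probe sets are the only measures of precision.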

Additional observations from a re-analysis of the deposited data

How the results depend on the processing

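The median difference of the trafficking genes stayed between 0.04 and 0.06, and FOSL1 between -1.54 and -1.45, under the 8 alternatives. The count at least 20% lower was 1 as reported (1.15%, against 5.91% of all genes). It was 3 after quantile normalization over named genes (3.45%, against 6.05%) and 2 with a trend on signal removed (2.3%, against 5.64%). With a trend on span removed it was 2 (2.3%, against 4.03%), and with no filter 2 (1.85%, against 9.8%). It was 0 when the 75th percentile was the filter, against 3.65% of all genes. At that stricter filter 48 genes remained. Of these 1, VPS13C, was at least 25% higher (2.08%, against 4.49%) and 30 lay above 0 (62.5%, against 50.9%). With no filter 1 gene was at least 1.5-fold higher (0.926%, against 1.91% of all genes). The other counts stayed within 1.5 times. Of the 87 genes, 7 changed sign with the span trend removed (SEC61B, SNX1, SNX2, SNX11, SNX21, VPS11 and VPS53), all from within 0.0467 of 0, and no gene moved by more than 0.0917 there. STX6 changed sign under centring and SNX2 under quantile normalization and the signal trend, and VPS51, whose probe sets disagree, moved by 0.12 and changed sign as a mean of probe sets. The cause of these changes was not tested. No paired analysis was possible because each group had 1 array. Arrays that share almost 1 distribution leave scaling little to alter, so this is no sign that the differences would repeat. A signal below the filter on 1 of the 2 arrays limits VPS29, SNX16, VPS8, VPS37D, MLPH and STXBP2. The background level itself was not estimated.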
